A study of Mus musculus with 8 samples.

Results

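The Notch genes examined here were 4 receptors (Notch1, Notch2, Notch3 and Notch4), 4 ligands (Jag1, Jag2, Dll1 and Dll4) and 2 target genes (Hes1 and Hey1), taken by symbol from a count table of 27133 genes. All 10 were found, and all 10 passed the filter on low counts among 17028 genes tested. Their RNA was measured in the parietal bone, a plate of the skull vault, of C57BL/6J mouse pups (strain label C57BL6J). Pups of the anti-CSF1R group received an antibody that blocks CSF1R, the receptor of CSF1 and IL-34 on macrophages and osteoclasts, and pups of the isotype group received a control antibody. In both groups dosing was transcranial, on days 2, 4 and 6 after birth, and pups were perfused and the bone collected on day 9. There were 4 libraries per group, named by the number in their title (anti-CSF1R 7 to 10 and isotype 2 to 5), and whether each came from its own pup is not stated, so the p-values reflect the spread among libraries, which may be technical.

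Notch signalling passes between touching cells. A ligand of the Jagged or Delta-like family on one cell pulls on a Notch receptor of its neighbour, an ADAM protease and then gamma-secretase cut the receptor, and the freed intracellular part enters the nucleus, where it joins the DNA-binding protein RBPJ and switches on genes of the Hes and Hey repressor families. In bone the pathway is known for holding back the maturation of osteoblast precursors and for shaping vessels, where Dll4, Notch1 and Notch4 act in endothelium and Notch3 in pericytes and smooth muscle. In humans, mutations of JAG1 and NOTCH2 cause Alagille syndrome, and stabilising mutations of NOTCH2 cause the bone-loss disorder Hajdu-Cheney syndrome.

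Promoter sequences (250 bases before to 50 after the transcript start, from RefSeq, build GRCm38.p6, 5′ to 3′ on the gene's strand) are shown for the 2 members with the smallest p-values, Notch2 and Jag1, for Notch3, the one member that passed the threshold in an alternative fit, and for Dlk1, the one other Notch pathway gene called on all libraries. Capitals mark CACGCG or its reverse complement CGCGTG, a sequence that Hes repressors bind.
Notch2 (chr3:98013288-98013587, plus strand): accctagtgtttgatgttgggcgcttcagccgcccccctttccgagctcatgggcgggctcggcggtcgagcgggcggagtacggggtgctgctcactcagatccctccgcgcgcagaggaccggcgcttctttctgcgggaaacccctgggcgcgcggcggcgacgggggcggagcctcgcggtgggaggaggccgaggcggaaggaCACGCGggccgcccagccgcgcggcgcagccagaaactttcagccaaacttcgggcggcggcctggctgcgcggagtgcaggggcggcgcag
Jag1 (chr2:137116471-137116770, minus strand): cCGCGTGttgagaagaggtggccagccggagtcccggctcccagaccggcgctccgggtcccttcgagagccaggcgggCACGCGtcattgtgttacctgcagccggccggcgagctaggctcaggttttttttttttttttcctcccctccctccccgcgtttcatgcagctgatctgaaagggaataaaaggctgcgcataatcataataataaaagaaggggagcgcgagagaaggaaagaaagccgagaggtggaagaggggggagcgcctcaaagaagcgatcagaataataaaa
Notch3 (chr17:32166841-32167140, minus strand): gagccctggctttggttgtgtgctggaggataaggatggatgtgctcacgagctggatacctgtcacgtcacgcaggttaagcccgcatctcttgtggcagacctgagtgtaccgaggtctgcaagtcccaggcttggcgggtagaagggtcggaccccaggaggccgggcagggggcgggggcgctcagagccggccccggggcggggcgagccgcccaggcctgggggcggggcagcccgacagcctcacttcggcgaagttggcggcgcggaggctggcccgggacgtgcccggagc
Dlk1 (chr12:109452573-109452872, plus strand): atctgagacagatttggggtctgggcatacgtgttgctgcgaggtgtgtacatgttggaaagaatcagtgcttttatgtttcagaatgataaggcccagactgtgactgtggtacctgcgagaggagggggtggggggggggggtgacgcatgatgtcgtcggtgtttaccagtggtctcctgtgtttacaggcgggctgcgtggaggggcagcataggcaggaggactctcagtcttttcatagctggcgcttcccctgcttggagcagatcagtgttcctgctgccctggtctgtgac
The RefSeq set used here held 9 promoters of 8 members, all of them receptors and ligands. It held none for the target genes Hes1 and Hey1, so the counts say nothing about RBPJ sites in those targets. On both strands, the RBPJ core TGGGAA was found in 0 of the 9 promoters, against 25.6% of 32851 mouse promoters of the same length, and its longer form CGTGGGAA, which contains the core, in 0 of 9 against 0.734%. The E-box CACGTG, which Hey proteins bind, was found in 0 of 9 against 7.15%. CACGCG, which shares its first letters with that E-box, was found in 5 of 9, those of Notch2, Jag1, Jag2, Dll1 and Dll4, against 9.27% of all promoters. Jag1 held 2 copies, on opposite strands. These are matches of letters in a short window and say nothing about binding. The background promoters were not matched for GC content, which ran from 55.7% (Jag1) to 86% (Jag2) in the 5 with CACGCG. As that sequence is itself mostly G and C, no enrichment can be read from these shares. The GC content of the 4 promoters shown was 73% in Notch2, 55.7% in Jag1, 70% in Notch3 and 55.7% in Dlk1.

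Library totals were 57.5 M to 69.1 M counts. Csf1r, whose protein the antibody blocks, stood at 39.4 to 64.4 CPM (counts scaled to a common library size with TMM factors) in anti-CSF1R libraries and at 238 to 549 CPM in isotype libraries (log2 fold change -2.66 ± 0.32 (SE), edgeR adjusted p = 0.0156), a call that dropping any anti-CSF1R library removed (adjusted p of at least 0.0564, log2 fold change -2.73 to -2.52), as did a muscle marker score as a covariate (0.0984, -2.39). Isotype 3 and 4 resembled each other (Spearman rho 0.989) and not the remaining 6 libraries, with which rho was 0.916 to 0.943. The deviation of both from the median library went with transcript GC content (rho 0.640 to 0.650 across genes, against -0.371 to -0.029 in the other libraries). Further fits are therefore used beside that on all libraries, one with isotype 2 and 5 only and one with an offset for GC content and transcript length. The osteoblast markers that define the tissue were detected in every library, at a summed level of 96600 to 114000 CPM with anti-CSF1R and 111000 to 164000 CPM with isotype. Most of this sum was Col1a1, at 73600 to 90800 CPM with anti-CSF1R and 88800 to 153000 CPM with isotype. Of the 8 osteoblast markers 0 passed with edgeR on all libraries, and 4 had a log2 fold change above 0 (median 0.02). The summed osteoclast markers were 2180 to 2950 CPM with anti-CSF1R and 5770 to 13600 CPM with isotype. Of these 9 markers 6 were called lower (0.822% of all genes), and all 9 were lower without overlap between the groups (8.34%).

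No Notch gene of the 10 passed the test on all 8 libraries. With edgeR, 0 of the 10 passed an adjusted p of 0.05, as 0.846% of the 17028 genes tested did, and 1 of 10 had an unadjusted p under 0.05, as 17.9% of all genes did. DESeq2 and limma-voom each called 0 of 10 too, beside 3.32% and 0.681% of genes. The median log2 fold change (anti-CSF1R minus isotype) of the 10 members was 0.08, beside 0.03 over all genes, and 6 of the 10 values lay above 0, beside 51.8% of all genes. With isotype 2 and 5 only, 1 of 10 members was called, Notch3, beside 3.06% of genes, and with the offset 0 of 10 beside 2.67%. The members' median log2 fold change was then 0.16 with isotype 2 and 5 only (0 over all genes) and 0.22 with the offset (0.02 over all genes). With isotype 2 and 5 only, 9 of 10 values lay above 0 (50.8% of all genes) and 2 of 10 had an unadjusted p under 0.05 (15.1%). With the offset, 8 of 10 lay above 0 (52.0%) and 4 of 10 had an unadjusted p under 0.05 (23.9%).

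**Figure D1:**
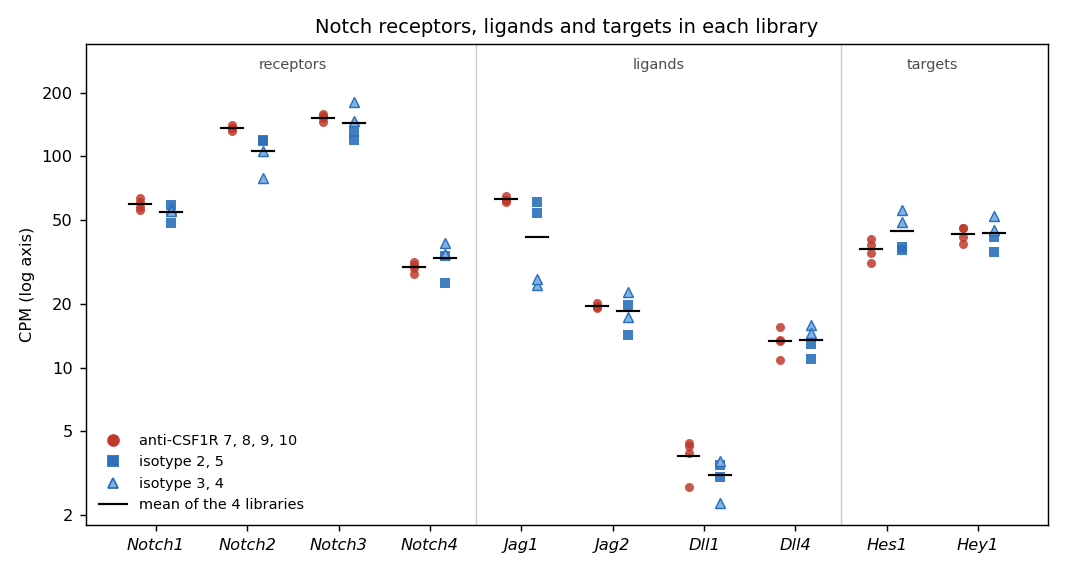
Level of each Notch gene in CPM (log axis) in the 8 libraries, anti-CSF1R (circles) to the left of isotype (squares for libraries 2 and 5, triangles for 3 and 4); black bars are the means of 4 libraries. The groups overlap for every gene except Notch2, and the Jag1 values of isotype 3 and 4, 24.5 and 26.3 CPM, lie far below the other 6.

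Per length of the longest transcript, the target genes and the receptors Notch3 and Notch2 were the most abundant members. Over the 8 libraries the median level was 25.7 CPM per kb for Hes1, 18.7 for Notch3, 17.8 for Hey1, 12 for Notch2, 10.8 for Jag1, 5.99 for Notch1, 4.73 for Notch4, 3.8 for Jag2, 3.6 for Dll4 and 0.988 for Dll1. Neighbours in this order had overlapping ranges, except that the lowest Hey1 value lay above the highest of Notch2 and the lowest Dll4 value above the highest of Dll1. Notch3 lay above Hey1 in 6 of 8 libraries, Jag1 above Notch1 in 6 of 8 and Jag2 above Dll4 in 5 of 8, so these pairs did not have a fixed order. The levels divide by the longest GENCODE M21 transcript, and the order changes with the length chosen.

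Among the receptors, Notch3 took the largest share of the summed level per kb, 43.9% to 45.3% in anti-CSF1R libraries and 41.8% to 53.7% in isotype libraries. Notch2 followed with 29.6% to 31.5% in anti-CSF1R and 18% to 32.4% in isotype libraries. Notch1 took 14.2% to 15.2% with anti-CSF1R and 14.2% to 15.9% with isotype, and Notch4 took 10.2% to 11.3% with anti-CSF1R and 10.8% to 14.1% with isotype. Jag1 took 55% to 60.7% of the ligands' summed level in anti-CSF1R and 30.9% to 59.3% in isotype libraries, the largest share in every library but isotype 3, where Jag2 took 31.8% and Jag1 30.9%. No receptor or ligand had shares that separated the groups. These shares and ranks depend on the length chosen. The median transcript length can be far shorter than the longest (406 and 9488 bp in Notch1). Divided by the median length, Notch3 stayed the highest receptor (median 209 CPM per kb). Notch2 was then the lowest receptor (median 20.3 CPM per kb, below Notch1 at 140 and Notch4 at 49.5). Jag2 lay above Jag1 (26.3 and 17.2 CPM per kb).

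Notch2, a receptor that osteoclast precursors, osteoblasts and B cells carry, was the one member whose groups did not overlap, as 6.61% of all genes did in the same direction. It stood at 132, 136, 141 and 136 CPM in anti-CSF1R 7, 8, 9 and 10, and at 119, 79, 106 and 118 CPM in isotype 2, 3, 4 and 5. All 4 anti-CSF1R libraries were above all 4 isotype libraries, and isotype 3 was the lowest. The log2 fold change was 0.36 ± 0.16 (SE, 95% interval 0.01 to 0.72) and did not pass over all genes (edgeR adjusted p = 0.278, or 0.123 to 0.868 under 18 alternatives). Its value was 0.19 ± 0.06 in the fit with isotype 2 and 5 only (edgeR adjusted p = 0.123). Macrophage markers summed to 71.5 to 129 CPM with anti-CSF1R and 436 to 939 CPM with isotype. Of these 8 markers 7 were called lower (0.822% of all genes), and all 8 were lower without overlap between the groups (8.34%). B cell markers summed to 20.9 to 40.1 CPM with anti-CSF1R and 27.5 to 51.7 CPM with isotype. The part of macrophage, B cell and osteoclast markers in the level of Notch2 was not tested.

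Notch3, the receptor of pericytes and vascular smooth muscle, stood at 152, 145, 155 and 158 CPM in anti-CSF1R 7, 8, 9 and 10, and at 119, 180, 147 and 130 CPM in isotype 2, 3, 4 and 5. The groups overlapped: isotype 3 was the highest of all 8 libraries and isotype 4 lay among the anti-CSF1R values, while isotype 2 and 5 were the lowest. On all libraries the log2 fold change was 0.09 ± 0.16 (SE, edgeR adjusted p = 0.702), and without isotype 2 its sign turned (-0.0275). In the fit with isotype 2 and 5 only it was 0.29 ± 0.07 and passed (edgeR adjusted p = 0.0445). The offset gave 0.12 (edgeR adjusted p = 0.465), and the 18 alternatives spanned adjusted p-values of 0.0445 to 0.901. The summed CPM of 10 mural markers was 957 to 993 with anti-CSF1R and 743 to 958 with isotype. In isotype 2 and 5 it was 845 and 911. Of the 10 markers 0 passed with edgeR on all libraries (1 had an unadjusted p under 0.05). In the fit with isotype 2 and 5 only, 2 were called higher, beside 0.679% of all genes. The mural markers did not move as a set. Their median log2 fold change was -0.22 on all libraries, with 4 of 10 above 0. With isotype 2 and 5 only it was 0.01, with 5 of 10 above 0. Per 100 CPM of these markers Notch3 stood at 15.5, 15.2, 15.8 and 16 CPM in anti-CSF1R 7, 8, 9 and 10 and at 14.1, 18.8, 19.8 and 14.3 CPM in isotype 2, 3, 4 and 5, with isotype 2 and 5 again the lowest and isotype 3 and 4 the highest. In bulk RNA, fewer cells of a type and less RNA per cell cannot be told apart.

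Notch1, the receptor of endothelium and many progenitors, stood at 57.3, 55.6, 63.5 and 60.7 CPM in anti-CSF1R 7, 8, 9 and 10, and at 48.1, 56.4, 55.2 and 58.6 CPM in isotype 2, 3, 4 and 5. Isotype 2 was the lowest and the groups overlapped (log2 fold change 0.12 ± 0.13 (SE), edgeR adjusted p = 0.511). Notch4, a receptor largely of endothelium, stood at 31.7, 27.6, 30.7 and 29.6 CPM in anti-CSF1R 7, 8, 9 and 10, and at 25.1, 38.8, 34.6 and 33.8 CPM in isotype 2, 3, 4 and 5. Its isotype values ran both below and above the anti-CSF1R values (log2 fold change -0.15 ± 0.16 (SE), edgeR adjusted p = 0.512), and the sign turned with library size alone as the scaling (0.022) and with isotype 2 and 5 only (0.0172). The summed CPM of 10 endothelial markers was 794 to 893 with anti-CSF1R and 670 to 786 with isotype, without overlap. Of these 10 markers 0 passed with edgeR on all libraries (3 had an unadjusted p under 0.05), and 5 had groups that did not overlap, all 5 higher with anti-CSF1R, as 6.61% of all genes had. On all libraries 6 of the 10 had a log2 fold change above 0 (51.8% of all genes), with a median of 0.21. With isotype 2 and 5 only, 1 of the 10 was called, higher (0.679% of all genes). In that fit 9 had a log2 fold change above 0 (50.8%) and 8 had an unadjusted p under 0.05 (15.1%). Per 100 CPM of these markers Notch4 stood at 3.31 to 3.87 CPM with anti-CSF1R and 3.6 to 5.17 CPM with isotype, and Notch1 at 6.8 to 8 CPM with anti-CSF1R and 6.89 to 8.24 CPM with isotype. The summed CPM of 6 arterial endothelial markers was 55.7 to 60.6 with anti-CSF1R and 50.2 to 72.1 with isotype, so the groups overlapped. On all libraries 0 of these 6 passed with edgeR, and 3 had a log2 fold change above 0 (median -0.01). With isotype 2 and 5 only, 1 was called lower, beside 2.38% of all genes, and 0 higher (median -0.11). The part of the endothelial and arterial markers in the values of Notch1, Notch4 and Dll4 was not tested.

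The ligand Jag1, made by osteoblast-lineage cells, endothelium and mural cells, showed the largest fold change of the 10 members on all 8 libraries. It stood at 60.6, 62, 65 and 62.3 CPM in anti-CSF1R 7, 8, 9 and 10, and at 53.9, 24.5, 26.3 and 61 CPM in isotype 2, 3, 4 and 5. Isotype 3 and 4 were low, while isotype 5 lay within the anti-CSF1R range and isotype 2 a little below it. The mean was 62.5 ± 1.87 CPM with anti-CSF1R and 41.4 ± 18.8 CPM with isotype (SD, n = 4 each). The log2 fold change of 0.59 ± 0.3 (SE, 95% interval -0.08 to 1.26) did not pass (edgeR adjusted p = 0.286), and the fit with isotype 2 and 5 only gave 0.12 ± 0.07 (edgeR adjusted p = 0.467). The offset gave 0.45 ± 0.19 (edgeR adjusted p = 0.195). Jag1 did not rank first in these 2 fits: Notch3 did with isotype 2 and 5 only (0.29) and Dll1 with the offset (0.52).

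The other ligands were less abundant and their groups overlapped. Jag2 stood at 20.3, 19.3, 19.6 and 19.2 CPM in anti-CSF1R 7, 8, 9 and 10, and at 14.3, 22.9, 17.4 and 19.7 CPM in isotype 2, 3, 4 and 5. Its isotype values lay on both sides of the anti-CSF1R values (log2 fold change 0.08 ± 0.17 (SE), edgeR adjusted p = 0.742), and the sign turned without isotype 2 (-0.059). Dll1, the least abundant member, was counted 138 to 332 times per library. It stood at 3.92, 4.38, 2.71 and 4.26 CPM in anti-CSF1R 7, 8, 9 and 10, and at 3.03, 3.63, 2.28 and 3.45 CPM in isotype 2, 3, 4 and 5. Apart from anti-CSF1R 9, the anti-CSF1R values lay above all isotype values (log2 fold change 0.3 ± 0.22 (SE), edgeR adjusted p = 0.357). With the offset the log2 fold change of Dll1 was 0.52 ± 0.23 (95% interval 0.01 to 1.04, edgeR adjusted p = 0.206). Dll4, the ligand of sprouting and arterial endothelium, stood at 13.4, 13.5, 10.8 and 15.5 CPM in anti-CSF1R 7, 8, 9 and 10, and at 11, 15.9, 14.5 and 12.9 CPM in isotype 2, 3, 4 and 5. The lowest value was that of anti-CSF1R 9 and the highest that of isotype 3. Its log2 fold change was -0.03 ± 0.17 (SE, 95% interval -0.42 to 0.36, edgeR adjusted p = 0.911), and the sign turned under 6 of 18 alternatives, library size alone among them (0.14).

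The target genes did not pass either. Hes1, a repressor that Notch and other signals induce, stood at 34.9, 31.3, 40.7 and 38 CPM in anti-CSF1R 7, 8, 9 and 10, and at 37.3, 55.4, 48.7 and 35.9 CPM in isotype 2, 3, 4 and 5. Isotype 3 and 4 were above all other libraries, and isotype 2 and 5 lay within the anti-CSF1R range. The log2 fold change was -0.29 ± 0.18 (SE, 95% interval -0.7 to 0.11, edgeR adjusted p = 0.312); the fit with isotype 2 and 5 only gave -0.02 (95% interval -0.24 to 0.19, edgeR adjusted p = 0.954). The offset gave -0.05 ± 0.12 (edgeR adjusted p = 0.817). Hey1, a repressor of endothelium and the osteoblast lineage, stood at 45.6, 41.5, 38.3 and 46 CPM in anti-CSF1R 7, 8, 9 and 10, and at 41.4, 52.4, 44.7 and 35.3 CPM in isotype 2, 3, 4 and 5. The isotype range enclosed the anti-CSF1R range. The log2 fold change was -0.02 ± 0.16 (SE, 95% interval -0.38 to 0.34, edgeR adjusted p = 0.933), and the sign turned under 6 of 18 alternatives, to 0.16 with library size alone and 0.22 with the offset.

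**Figure D2:**
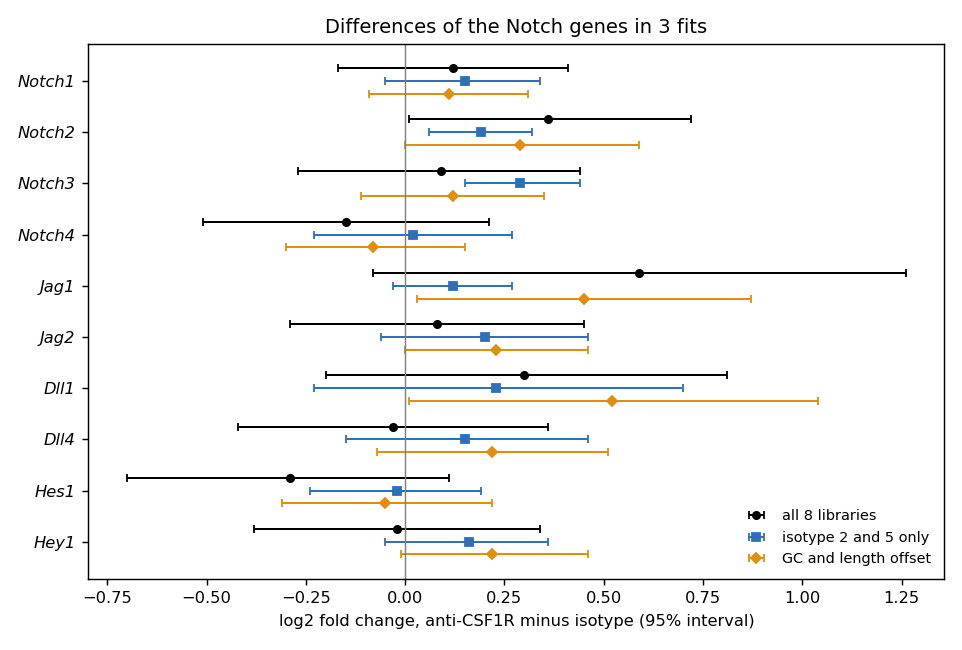
Log2 fold change of each Notch gene, anti-CSF1R minus isotype, with its 95% interval, in edgeR fits on all 8 libraries (black circles), with isotype 2 and 5 only (blue squares) and with an offset for GC content and length (orange diamonds). Without isotype 3 and 4 the estimate of Jag1 was 0.12, against 0.59 on all libraries, and that of Notch3 0.29, against 0.09.

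The spread within the isotype group exceeded that within the anti-CSF1R group for most members. The SD of Notch2 was 3.72 CPM with anti-CSF1R and 18.8 CPM with isotype, that of Notch3 was 5.71 CPM with anti-CSF1R and 26.4 CPM with isotype, and Dll1 was the one member with a larger SD with anti-CSF1R (0.764 CPM) than with isotype (0.6 CPM). Between isotype 3 and 4 and isotype 2 and 5 the log2 ratio of mean CPM ran from -1.18 in Jag1, whose longest transcript has the lowest GC content of the 10 (48.8%), to 0.51 in Hes1 (50.7%). Of the 4 members with a GC content of 57.1% or more, Notch1, Notch3, Notch4 and Jag2, all had a ratio above 0 (0.06 to 0.39), and Hey1 and Dll4 did too (0.34 and 0.35, at 52.6% and 55.9%). Notch2 and Dll1 had ratios of -0.36 and -0.13, at 53.6% and 54.9%. The part of GC content in these ratios was not tested.

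**Figure D3:**
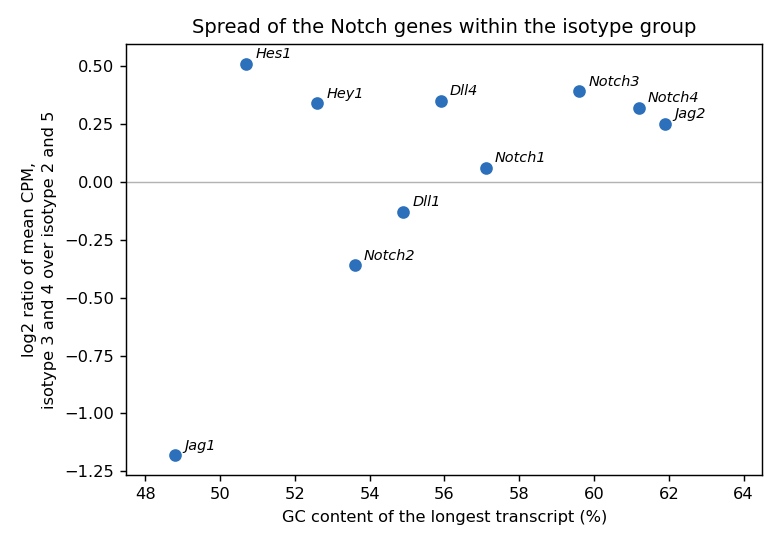
Log2 ratio of mean CPM, isotype 3 and 4 over isotype 2 and 5 (vertical axis), against the GC content of the longest GENCODE M21 transcript in percent (horizontal axis), 1 point per Notch gene. Jag1 lies at -1.18 and Hes1 at 0.51, and both are at the low end of GC content.

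Of the 65 other Notch pathway genes listed, 63 were tested (Dll3 and Hes2 were too low). Among the 63, 1 was called lower and 0 higher, beside 0.822% and 0.0235% of all genes. Their median log2 fold change was -0.06, beside 0.03 over all genes. The groups did not overlap in 5 of the 63 with anti-CSF1R higher and in 6 with it lower, beside 6.61% and 8.34% of all genes. The gene called lower was Dlk1, a membrane protein of the Delta family. It lacks the domain by which Delta ligands activate Notch and is known in mice for marking preadipocytes and early stromal cells. Dlk1 stood at 6.15, 5.97, 6.14 and 6.21 CPM in anti-CSF1R 7, 8, 9 and 10, and at 9.99, 22.3, 16.8 and 13.2 CPM in isotype 2, 3, 4 and 5. The anti-CSF1R values lay close together (SD 0.103 CPM) and below all isotype values. The log2 fold change was -1.35 ± 0.24 (SE, 95% interval -1.89 to -0.81, edgeR adjusted p = 0.0427). In the fit with isotype 2 and 5 only it was -0.93 ± 0.12 (edgeR adjusted p = 0.00356). The offset gave -1.21 ± 0.18 (edgeR adjusted p = 0.00668). Adjusted p-values under the 18 alternatives spanned 2.94e-05 to 0.264. The threshold was missed when any single anti-CSF1R library was left out (edgeR adjusted p from 0.153 to 0.174), when isotype 4 was left out (0.108), in limma-voom (0.0582) and with a score of muscle markers as a covariate (0.264). The log2 fold changes in those fits were -1.35 to -1.33 without an anti-CSF1R library, -1.33 without isotype 4, -1.28 in limma-voom and -1.15 with the muscle covariate.

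Skeletal muscle is a tissue that expresses Dlk1 in young mice, and its markers varied between libraries. The summed CPM of 10 muscle markers was 7.55, 7.86, 7.66 and 8.02 in anti-CSF1R 7, 8, 9 and 10, and 32.5, 76.9, 9.05 and 7.15 in isotype 2, 3, 4 and 5. Isotype 3 had both the highest muscle sum and the highest Dlk1, 22.3 CPM. Isotype 4 and 5, whose muscle sums were near those of the anti-CSF1R libraries, had 16.8 and 13.2 CPM of Dlk1. Isotype 2, with the second highest muscle sum, had the lowest Dlk1 of the isotype group. Of the 8 muscle markers tested, 0 passed with edgeR and 6 had an unadjusted p under 0.05, beside 17.9% of all genes (median log2 fold change -2.43). In 2 of the 8 the groups did not overlap, with anti-CSF1R lower, beside 8.34% of all genes. Apart from the fit with the muscle covariate, the part of muscle in the fall of Dlk1 was not tested.

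**Figure D4:**
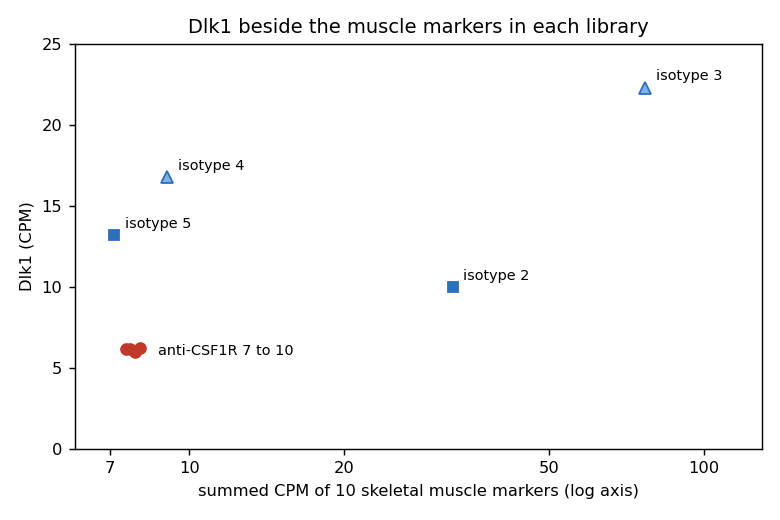
Dlk1 in CPM against the summed CPM of 10 skeletal muscle markers (log axis) in each library. The 4 anti-CSF1R libraries (circles) lie together at 5.97 to 6.21 CPM of Dlk1; isotype 4 and 5, at about the same muscle sum, lie at 16.8 and 13.2 CPM, and isotype 3, with the highest muscle sum, at 22.3 CPM.

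Among the other listed ligands and binding partners, Mfap5, a microfibril protein, stood at 0.567, 0.673, 0.635 and 0.231 CPM in anti-CSF1R 7, 8, 9 and 10, and at 3.11, 0.993, 13.6 and 0.509 CPM in isotype 2, 3, 4 and 5. Isotype 4 was far above the rest and isotype 5 within the anti-CSF1R range (log2 fold change -3.1 ± 0.96 (SE), edgeR adjusted p = 0.223), and with DESeq2 it passed (adjusted p = 0.0406). The fit with isotype 2 and 5 only gave -1.76 (edgeR adjusted p = 0.296). Dner, a neuronal transmembrane ligand, averaged 10.4 ± 2.12 CPM with anti-CSF1R and 7.38 ± 1.65 CPM with isotype (SD, n = 4 each, edgeR adjusted p = 0.278). The summed level of 7 neural markers was 10.9 to 21.8 CPM with anti-CSF1R and 18.3 to 23.5 CPM with isotype, and its part was not tested.

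Of 18 genes that modify receptors or ligands or steer their traffic, 0 passed with edgeR on all libraries (median log2 fold change -0.08). An unadjusted p under 0.05 (edgeR) was found in 3 of them, beside 17.9% of all genes. Groups did not overlap in 3 with anti-CSF1R lower and in 1 with it higher, beside 8.34% and 6.61% of all genes. Dtx4, an E3 ligase of the Deltex family, stood at 34.1, 31.8, 33 and 34.9 CPM in anti-CSF1R 7, 8, 9 and 10, and at 53.1, 51.8, 60.9 and 37.1 CPM in isotype 2, 3, 4 and 5. The groups did not overlap, as also in Lfng and Dtx2, all 3 lower with anti-CSF1R, but isotype 5 lay close to the anti-CSF1R libraries. Its log2 fold change of -0.6 ± 0.17 (SE) had an edgeR adjusted p of 0.176, and it passed with DESeq2 (adjusted p = 0.0336) and once isotype 5 was dropped (edgeR, 0.0488). Lfng, the sugar transferase Lunatic fringe that tunes which ligands a receptor answers, stood at 23, 20.5, 20.3 and 19.5 CPM in anti-CSF1R 7, 8, 9 and 10, and at 25.4, 56.1, 40.2 and 25.4 CPM in isotype 2, 3, 4 and 5. Isotype 3 and 4 were the highest, and the log2 fold change was -0.82 on all libraries (edgeR adjusted p = 0.237); the fit with isotype 2 and 5 only gave -0.29 (edgeR adjusted p = 0.0875). The offset gave -0.42 (edgeR adjusted p = 0.0897). Dtx2, also of the Deltex family, averaged 15.2 ± 0.966 CPM with anti-CSF1R and 24.3 ± 9.24 CPM with isotype (SD, n = 4 each, edgeR adjusted p = 0.277).

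Of 10 genes of the enzymes that cut the receptor, 0 passed (edgeR, median log2 fold change -0.31). An unadjusted p under 0.05 (edgeR) was found in 2 of them, beside 17.9% of all genes. Groups did not overlap in 2 with anti-CSF1R lower and in 1 with it higher, beside 8.34% and 6.61% of all genes. Psenen and Aph1a, subunits of gamma-secretase, were lower with anti-CSF1R without overlap between the groups and highest in isotype 3 and 4: Psenen had 52.7 and 36.9 CPM there and 19.4 to 24 CPM in the other 6 libraries. Their log2 fold changes, -0.7 and -0.65 (edgeR adjusted p = 0.278 for both), were each -0.15 in the fit with isotype 2 and 5 only, and -0.22 and -0.36 with the offset. Psen2, a catalytic subunit, averaged 13.8 ± 0.394 CPM with anti-CSF1R and 19.2 ± 6.1 CPM with isotype (SD, n = 4 each, edgeR adjusted p = 0.278). Of 22 nuclear cofactors, 0 passed and 3 had an unadjusted p under 0.05, beside 17.9% of all genes (edgeR, median log2 fold change 0.19). Tle2, a corepressor of the Groucho family, stood at 183, 186, 211 and 198 CPM in anti-CSF1R 7, 8, 9 and 10, and at 117, 130, 116 and 172 CPM in isotype 2, 3, 4 and 5. The groups did not overlap (log2 fold change 0.54 ± 0.17 (SE), edgeR adjusted p = 0.217). Maml3, a Mastermind coactivator, had a log2 fold change of 0.42 and Crebbp, a histone acetyltransferase, of 0.57 (edgeR adjusted p = 0.263 and 0.278), also without overlap, so that 3 of 22 cofactors had groups that did not overlap and were higher with anti-CSF1R, beside 6.61% of all genes. Of 7 other Hes and Hey family genes and feedback targets tested, 0 passed and 0 had an unadjusted p under 0.05 (edgeR, median log2 fold change -0.33, and 0.01 with isotype 2 and 5 only). Hes3, Hes6 and Hes5 had the smallest p-values there, at -0.54, -0.51 and -0.76 on the log2 scale (edgeR adjusted p = 0.278, 0.289 and 0.298). Hes5 was counted only 8 to 30 times per library, and the fit with isotype 2 and 5 only gave -0.83 for it. Several of these values were nearer 0 in the fit with isotype 2 and 5 only, which gave -0.18 for Dtx2, -0.13 for Psen2, 0.18 for Crebbp and -0.07 for Hes3, and turned the sign of Hes6 (0.0316).

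**Figure D5:**
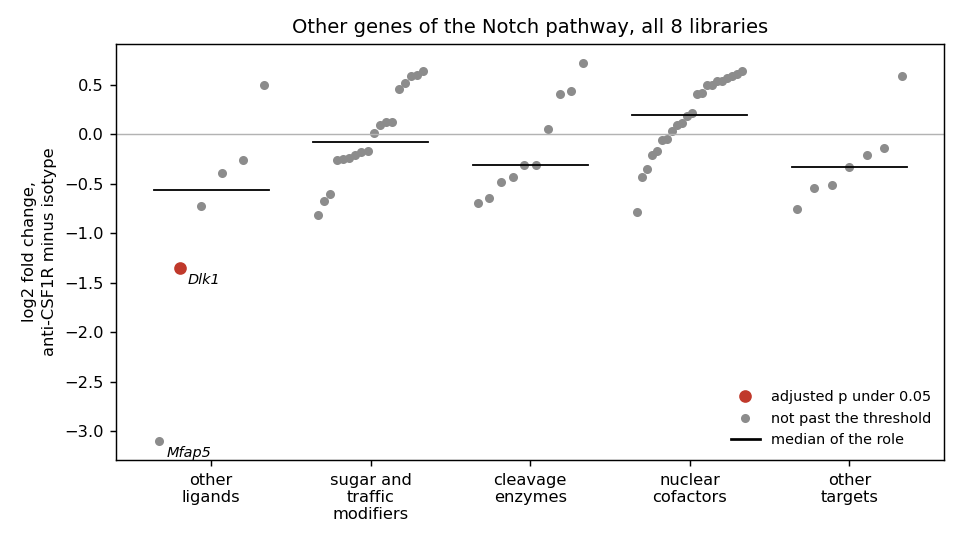
Log2 fold change, anti-CSF1R minus isotype, of 63 other Notch pathway genes by role on all 8 libraries; each point is a gene, sorted within its role, and black bars are medians. Dlk1, at -1.35, is the one gene with an adjusted p under 0.05; Mfap5 has the lowest value, -3.1, and did not pass.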

How the data were processed

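Poly(A) RNA of 8 parietal bone libraries was analysed from the table of raw counts that the authors deposited, with 1 row per gene symbol. The submitters' processing notes list STAR 2.7.10b, featureCounts 1.6.3, GRCm38 and GRCm39, and do not say which build served for what. How strand and multi-mapping reads were handled is not given in the sources used here; overlapping and antisense genes may share reads. According to the labels' protocols, the stranded mRNA kit was fed 1 µg of RNA and sequenced as paired reads of 101 bp. Between 82.8% and 84.7% of counts from 1 to 10 were even, as arises when both mates are counted, so the totals overstate the number of fragments; the intervals given come from the spread between libraries.

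Samples were grouped by the labels. The comparison used edgeR 4.0.16 in R 4.3.3 with TMM scaling on the 17028 genes that filterByExpr kept. Genes were tested by quasi-likelihood (glmQLFit, robust, and glmQLFTest), and p-values were adjusted by Benjamini-Hochberg over all of them (threshold 0.05). CPM uses TMM library sizes, and levels per kb divide by the longest GENCODE M21 transcript. Pairs of libraries of a group differed by at least 8.44 times counting noise (median squared difference), so none was a copy. Alternatives were DESeq2 1.42.0, limma-voom (limma 3.58.1), RLE scaling, scaling by library size alone, other filters, leaving out each library, isotype 2 and 5 only, a GC and length offset (splines with 5 degrees of freedom, for the 94% of tested genes with a reference transcript), a muscle score covariate and halved counts. The scripts were tested on simulated data, as a check of the code. No power at the spread of these libraries is given. The members, lists and alternatives were chosen with earlier results of these data known. Named genes are the 10 members, Csf1r, and, of the other pathway genes, each one past the threshold and the 3 with the smallest p in each of 5 roles. Genes of like pattern are, for the 3 members with the smallest p, the 3 genes of highest Pearson correlation over the libraries.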

Additional observations from a re-analysis of the deposited data

How the results depend on the processing

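Of the 10 Notch genes, 0 were called on all libraries and under 17 of 18 alternatives, and 1, Notch3, with isotype 2 and 5 only. Of 180 fold changes of the members under alternatives, 16 turned in sign, none of them called. With library size alone, which moved the median of all genes to 0.19, against 0.03 with TMM, Notch4, Dll4 and Hey1 stood at 0.022, 0.14 and 0.16, each below that median. With isotype 2 and 5 only they stood at 0.0172, 0.15 and 0.16. With the offset Dll4 and Hey1 both stood at 0.22, and with the muscle covariate at 0.0527 and 0.16. Without 1 library, Notch3 ranged from -0.0275 to 0.21, Jag2 from -0.059 to 0.19, Dll4 from -0.15 to 0.0584 and Hey1 from -0.11 to 0.0825. Hes6 stood at 0.0316 with isotype 2 and 5 only. The cause of these turns was not tested.

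Of the other pathway genes, 1 was called on all libraries, 3 with DESeq2 (Dlk1, Mfap5 and Dtx4), 0 with limma-voom, 0 with the muscle covariate, and 0 to 2 without 1 library. Over all genes the count was 144, and 734 with DESeq2, 536 with isotype 2 and 5 only, 455 with the offset and 0 with the muscle covariate in edgeR (985 with an unadjusted p under 0.05). Without 1 library it ranged from 0 to 260; edgeR called 0 without anti-CSF1R 7 or 8 (1903 and 1597 with an unadjusted p under 0.05), 4 and 14 without anti-CSF1R 9 and 10, 35 without isotype 4, 234 without isotype 5 and 260 without isotype 2. A median transcript length in place of the longest put Notch3 and Notch1 first in the order of levels, Notch2 last among the receptors and Jag2 above Jag1. No paired analysis was possible because the groups share no replicate numbers.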

Other observations

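Genes whose levels ran most like those of a member across the 8 libraries were found among 12580 genes. These values are a description: isotype 3 and 4 stand apart from the other libraries, their GC deviation moves with them, and r is also given without them. The genes were picked by r over all 8 libraries, which include those 6, so r over the 6 is no independent check. Notch2 ran most like Sh3bp5, Baz2a and Smarce1 (Pearson r = 0.996, 0.994 and 0.992 of log2 CPM), with r = 0.968, 0.956 and 0.944 over the 6 libraries without isotype 3 and 4. Jag1 ran most like Bms1, Zfp273 and Hnrnpa2b1 (r = 0.998 for each), with r = 0.958, 0.902 and 0.89 over the 6. As many as 3935 genes had an r above 0.9 with Jag1, 785 with Notch2 and 1104 with Hes1. Hes1 ran most like Wbp1l, Hmx1 and Tmub1 (r = 0.988, 0.982 and 0.978), with r = 0.935, 0.9 and 0.918 over the 6.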
